A study of Mus musculus with 2 samples.

Results

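Vascular endothelial growth factors (VEGFs) and the receptors that read them form the best known growth signal of blood vessels. The genes described here are the 8 of this family and its coreceptors that were chosen by name, out of 17139 genes listed in each library: the ligands Vegfa, Vegfc and Pgf, the receptor tyrosine kinases Kdr (VEGFR2), Flt1 (VEGFR1) and Flt4 (VEGFR3), and the neuropilins Nrp1 and Nrp2. All 8 were measured in both libraries, and 7 reached the limit of 5 CPM (counts per 1000000 UMIs) in at least 1 library that was set for counts of higher and lower genes. Vegfa was the one that did not.

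The data are single-cell RNA sequencing (scRNA-seq) of endothelial cells (ECs) from 2 LLC tumours. LLC is a Lewis lung carcinoma line that grows in C57BL/6 mice, here male and 8 to 9 weeks old at implantation, and neither group carried a genetic change. The PBS library came from a tumour injected with PBS, and the cGAMP library from a tumour that received 14 µg of cGAMP, a cyclic dinucleotide that activates STING. The methods give 24 h between injection and sampling, whereas a supplementary legend gives 6 h. Live CD45-CD31+ cells were sorted, so that CD31 (Pecam1) helped to choose the cells. Each library came from 1 mouse. No test between conditions was therefore possible, the mouse, the library and the treatment cannot be told apart, and every interval below covers counting error only.

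The PBS library held 2517 ECs with 92081146 UMIs (median 29780 per cell) and the cGAMP library 1340 ECs with 63366746 UMIs (median 41178 per cell), and 1 cell barcode occurred in both. Pecam1 stood at 944 and 824 CPM and Cdh5 at 1146 and 1008 CPM, as the label of ECs asks. Of the 13 measured leucocyte markers, 7 in the PBS and 3 in the cGAMP library stayed under 1 CPM, and their sum was 54.9 and 129.97 CPM. The pan-leucocyte gene Ptprc stood at 0.25 and 0.60 CPM. The keratins Krt8 and Krt18, markers of carcinoma cells, stayed at or under 1.30 CPM. Cells were grouped into 8 clusters without use of the 8 genes, and clusters were named from marker lists and by their leading genes.

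VEGF-A binds KDR, the main signalling receptor of sprouting ECs, and also FLT1, which binds tightly but signals weakly and can act as a decoy. PlGF, the product of Pgf, binds FLT1 and not KDR, whereas VEGF-C binds FLT4, the receptor of lymphatic ECs that sprouting blood ECs also use. The neuropilins hold ligands for these receptors and also bind class 3 semaphorins, NRP1 mostly in arteries and NRP2 mostly in veins and lymphatics. In tumours, hypoxia raises VEGF-A and PlGF through the HIF transcription factors, and tip cells at the front of a sprout respond to VEGF-A.

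Because Pgf and Vegfa were highest in a cluster led by hypoxia genes, where Kdr was lowest, the starts of these genes and of Flt1 were searched for the core of the HIF motif, ACGTG or GCGTG, on both strands. The 250 bases before the first RefSeq start were used (GRCm38.p6). Over all 32851 such windows, ACGTG occurred in 16.6% and GCGTG in 28.2%. The window of Pgf overlaps an exon of another annotated Pgf transcript, and those of Kdr, Flt4 and Nrp2 also overlap annotated exons of their genes. The whole window of Vegfa and Flt1 and 30 bases around the first match of Pgf and Kdr are shown 5′ to 3′ on the strand of the gene, with matches in capitals. CACGC is GCGTG read on the other strand.
Vegfa, chr17:46032378-46032627, minus strand: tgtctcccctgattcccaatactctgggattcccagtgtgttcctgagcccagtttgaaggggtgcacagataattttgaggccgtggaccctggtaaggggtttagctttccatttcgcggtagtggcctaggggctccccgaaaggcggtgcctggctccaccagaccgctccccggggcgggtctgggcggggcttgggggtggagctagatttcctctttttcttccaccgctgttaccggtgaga
Flt1, chr5:147726012-147726261, minus strand: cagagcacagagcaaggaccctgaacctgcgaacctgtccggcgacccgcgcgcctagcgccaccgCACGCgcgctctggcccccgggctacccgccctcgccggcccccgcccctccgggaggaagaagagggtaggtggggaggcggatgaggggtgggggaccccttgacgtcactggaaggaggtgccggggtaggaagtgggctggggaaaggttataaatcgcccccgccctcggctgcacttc
Pgf, chr12:85177420-85177449, minus strand: gccctgcggggtCACGCgcactcaggtctc
Kdr, chr5:75978569-75978598, minus strand: gtgggggagtggGCGTGggaaaccgggaaa
Vegfa held neither core in this window, and sequence outside the window was not searched for any gene. Pgf held 1 GCGTG, at position -124 from the start, Flt1 held 1, at -184, and Kdr held 2, the first at -131. Of the other members, Nrp1 held 1 GCGTG and Nrp2 held 2, and Flt4 and Vegfc held neither. A motif of the Notch factor RBPJ, TGGGAA, occurred in 21.6% of all windows, in 2 copies in Vegfa and in 1 in Kdr. These matches describe the letters of the windows and are not binding sites.

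Of the ligands, Pgf was lower in the cGAMP library and Vegfc higher, and Vegfa was scarce in both. Pgf (ENSMUSG00000004791.7, chromosome 12 of GRCm38 from 85166635 to 85177790) stood at 238 CPM (exact Poisson 95% interval 235 to 241) in PBS-treated ECs and at 149.7 CPM (147 to 153) in cGAMP-treated ECs. Its log2 ratio of cGAMP over PBS was -0.67 (counting interval -0.70 to -0.63), or 1.59-fold lower. Vegfc, the ligand of FLT4 (ENSMUSG00000031520.6, chromosome 8 from 54077606 to 54187096), stood at 29.3 CPM (28.2 to 30.5) and 38.1 CPM (36.6 to 39.7), a log2 ratio of 0.38 (0.30 to 0.46). Vegfa (ENSMUSG00000023951.17, chromosome 17 from 46016993 to 46032369) was counted with 409 UMIs in PBS-treated and 181 in cGAMP-treated ECs, which makes 4.44 CPM (4.02 to 4.89) and 2.86 CPM (2.46 to 3.30). The counting intervals of each of these 3 ligands were apart between the libraries.

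The receptors and neuropilins differed less. Flt1 (ENSMUSG00000029648.13, chromosome 5 from 147561604 to 147726011) was the highest of them in ratio, with 681 CPM (676 to 686) in the PBS and 822 CPM (815 to 829) in the cGAMP library, a log2 ratio of 0.27 (0.25 to 0.29). Kdr (ENSMUSG00000062960.10, chromosome 5 from 75932827 to 75978458) stood at 309 CPM (305 to 313) and 289 CPM (285 to 293), a log2 ratio of -0.10 (-0.12 to -0.07). Flt4 (ENSMUSG00000020357.3, chromosome 11 from 49609263 to 49652739) stood at 42.8 and 37.7 CPM, a log2 ratio of -0.18 (-0.25 to -0.11). Flt1 was thus the receptor with the higher level after cGAMP, and Kdr and Flt4 were slightly lower. Nrp2 (ENSMUSG00000025969.15, chromosome 1 from 62703285 to 62818695) stood at 108 and 98.9 CPM, a log2 ratio of -0.13 (-0.18 to -0.08). Nrp1 (ENSMUSG00000025810.9, chromosome 8 from 128358604 to 128503363) stood at 139 CPM in each library, and its log2 ratio of 0.00 had a counting interval from -0.04 to 0.04.

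Of the 7 members with at least 5 CPM, only Pgf was at least 1.5-fold lower after cGAMP, where 7.41% of 9509 genes were, and none was at least 1.5-fold higher, where 4.53% were. The median log2 ratio of the 7 was -0.10, against -0.08 over all genes tested. The deposited values are given per gene and not per transcript. Soluble and membrane-bound FLT1 (6 annotated transcripts) and the isoforms of VEGF-A (13 annotated transcripts) could therefore not be told apart. The other ligands, Vegfb and Vegfd, are outside the 8 genes. Vegfb, which like Pgf binds FLT1, stood at 17.3 and 15.2 CPM, and Vegfd, a ligand of FLT4, had 42 and 23 UMIs.

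**Figure D1:**
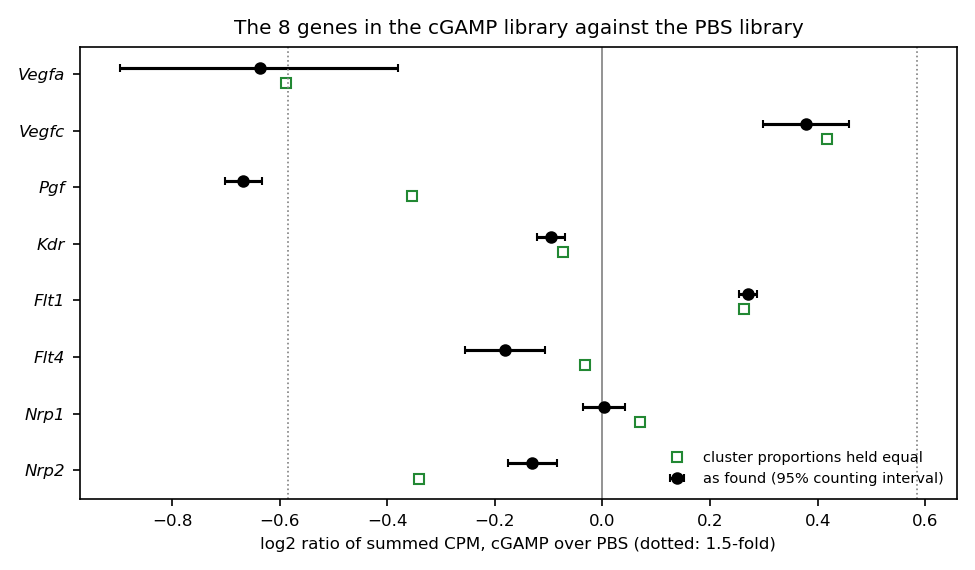
Log2 ratio of summed CPM, cGAMP over PBS (x axis), for each of the 8 genes (y axis). Black points with 95% counting intervals are as found, and green squares have the proportions of the clusters, as shares of UMIs, held equal. Dotted lines mark 1.5-fold, and Pgf moves from -0.67 to -0.35 and Nrp2 from -0.13 to -0.34 when proportions are held equal.

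UMIs of Kdr and Flt1 were found in most ECs, and those of the other members in fewer. With each cell thinned to 5000 UMIs, 71.9% of the PBS-treated ECs had a UMI of Kdr (exact binomial 95% interval 70.1 to 73.7), as had 68.5% of those treated with cGAMP (65.9 to 71.0). For Flt1 the shares were 87.1% (85.7 to 88.4) and 91.9% (90.3 to 93.3). Those of Flt4 were 18.0% and 17.4%, those of Nrp1 45.9% and 46.7%, and those of Nrp2 39.2% and 40.2%, each with overlapping intervals. For Pgf the share was 25.6% (23.9 to 27.4) in the PBS and 16.6% (14.6 to 18.7) in the cGAMP library, and without thinning 42.1% and 29.0%. The 10% of cells with the most Pgf UMIs held 73.8% of them in the PBS and 86.6% in the cGAMP library, against 32.8% and 32.4% for Kdr. A Vegfc UMI was found in 12.3% (11.0 to 13.6) and 15.3% (13.4 to 17.3). Vegfa was found in 2.45% and 1.51%, and Lyz2, a leucocyte transcript that sorted ECs should lack, in 2.29% and 6.71%. Over whole libraries the share of cells with Vegfa was thus near or under that of Lyz2. How much of either came from RNA of other cells was not tested.

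Pgf and Flt1, a ligand and its receptor, were found together in 20.1% of thinned PBS-treated ECs and 13.8% of cGAMP-treated ECs. Cells with a Pgf UMI carried Flt1 less often, at 78.6% against 90% of the other cells in the PBS library and 83.2% against 93.6% in the cGAMP library. Vegfa was found in 6.38% of the cells with Pgf and 1.10% of the others in the PBS library, and in 3.64% and 1.08% in the cGAMP library. Of the PBS-treated ECs with Nrp1, 40.5% had a UMI of Nrp2, against 38.0% of those without, and after cGAMP the shares were 39.5% and 40.7%. These shares pool all clusters and describe cells of 1 mouse per condition.

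The clusters set the frame for the rest. A tip-like cluster led by Gal and Chga held 390 PBS-treated and 130 cGAMP-treated ECs, and the mural marker Kcnj8 was among its leading genes. Another tip-like cluster, of 111 and 63 ECs, was led by Pgf itself and by the hypoxia genes Bnip3 and Egln3 besides Ankrd1 and Adm. Of 12 tip-like markers, 5 were raised in the Gal/Chga and 7 in the Bnip3/Ankrd1 cluster. Only 1 was among the 10 leading genes of each, level with 1 mural marker in the former and 1 arterial marker in the latter. The arterial-like cluster (Gja4, Nts) held 343 and 172 ECs, the venous stalk-like cluster (Ackr1, Selp), which the cytokine Csf3 and the adhesion gene Sele also led, 336 and 331, and the proliferative cluster (Ube2c, Cenpf) 488 and 183. The other 3 clusters stayed unnamed. They were led by Ramp3 and Igfbp3 (617 and 273 ECs), by the DNA replication genes Ung and Hells (188 and 136 ECs) and by Igfbp5 and Ctsh (44 and 52 ECs). In the last of these all 11 venous stalk-like markers were raised, but none of them was among its 10 leading genes. Median depth ranged over the clusters from 18434 to 41119 UMIs per cell in the PBS and from 26881 to 57742 in the cGAMP library.

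Each of the 7 members with at least 20 CPM was highest in the same cluster in both libraries, which held for 58.0% of all 6045 genes so compared. In the PBS library the class of that cluster, arterial-like, was kept for Flt4 in 4 and for Nrp1 in 5 of 7 other clusterings or averages, and was tip-like in the rest. Of these 7, Pgf and Vegfc stood at least 4-fold higher in their highest than in their lowest cluster (5 CPM added to both) in each library, where 10.0% of genes did in the PBS and 8.1% in the cGAMP library. Kdr, Flt1, Flt4, Nrp1 and Vegfc were highest in arterial-like ECs, Nrp2 in the Igfbp5/Ctsh and venous stalk-like clusters, and Pgf and Vegfa in the Bnip3/Ankrd1 tip-like cluster.

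**Figure D2:**
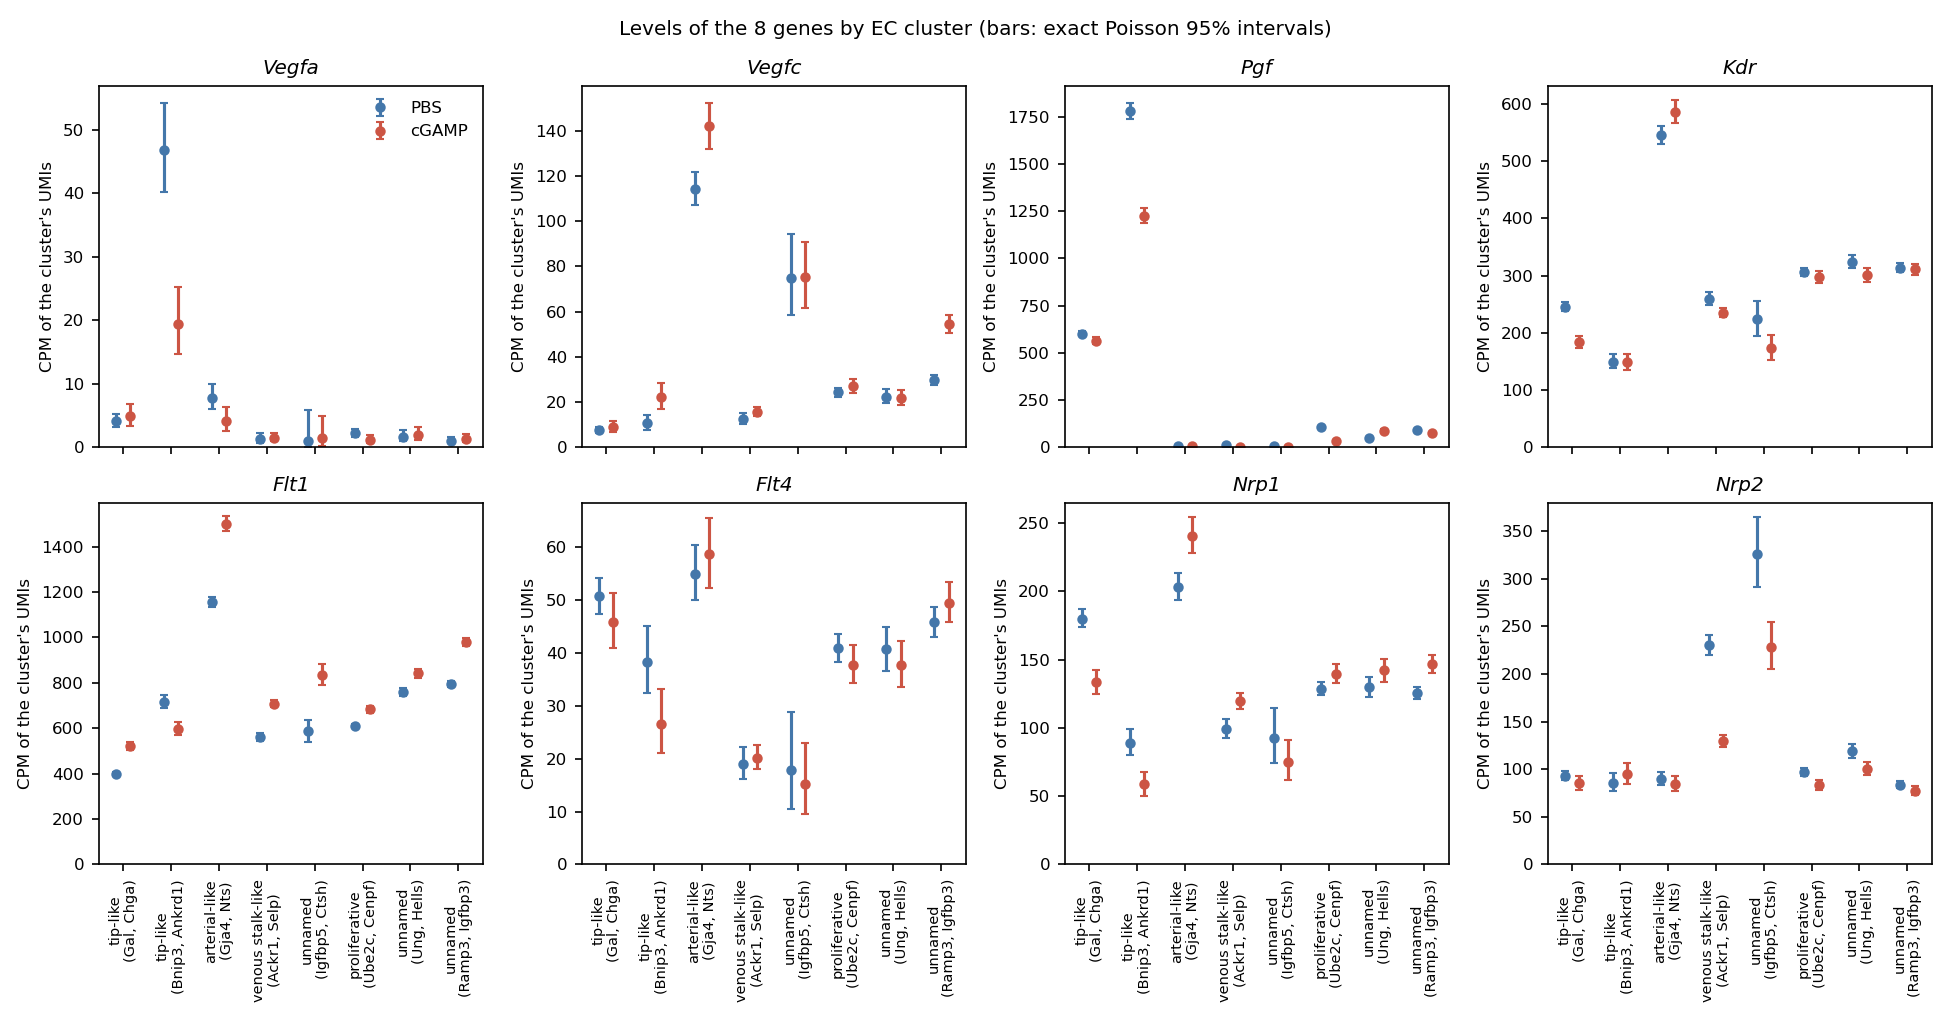
Level of each of the 8 genes, 1 panel a gene, as CPM of the UMIs of a cluster (y axis, linear, from 0) in 8 EC clusters (x axis) of the PBS (blue) and cGAMP (red) libraries, with exact Poisson 95% intervals as bars. Pgf and Vegfa stand out in the Bnip3/Ankrd1 tip-like cluster, Kdr, Flt1, Nrp1 and Vegfc in arterial-like ECs, and Nrp2 in the venous stalk-like and Igfbp5/Ctsh clusters.

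Pgf separated the clusters more than any other member. In the Bnip3/Ankrd1 tip-like cluster it stood at 1780.4 CPM (1739 to 1823) in PBS-treated and 1227 CPM (1187 to 1267) in cGAMP-treated ECs, and in the Gal/Chga tip-like cluster at 602 CPM (591 to 615) and 565 CPM (547 to 583). It was at 12.4 and 2.89 CPM in venous stalk-like ECs, 8.10 and 4.89 CPM in arterial-like ECs, and 4.22 and 2.07 CPM in the Igfbp5/Ctsh cluster. Both tip-like clusters together held 76.2% of the Pgf UMIs but 19.9% of the cells in the PBS library, and 77.3% of the UMIs but 14.4% of the cells in the cGAMP library. After thinning, 96.3% and 88.9% of the Bnip3/Ankrd1 cells had a UMI of Pgf, as had 73.6% and 69.8% of the Gal/Chga cells. In arterial-like ECs it was found in 4.92% (2.84 to 7.87) and 4.73% and Lyz2 in 0.92% (0.19 to 2.67) and 6.51%, and in venous stalk-like ECs Pgf was found in 2.77% and 1.22% and Lyz2 in 1.54% and 6.99%. Apart from PBS-treated arterial-like ECs, these Pgf shares were not above those of Lyz2 by more than counting error.

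**Figure D3:**
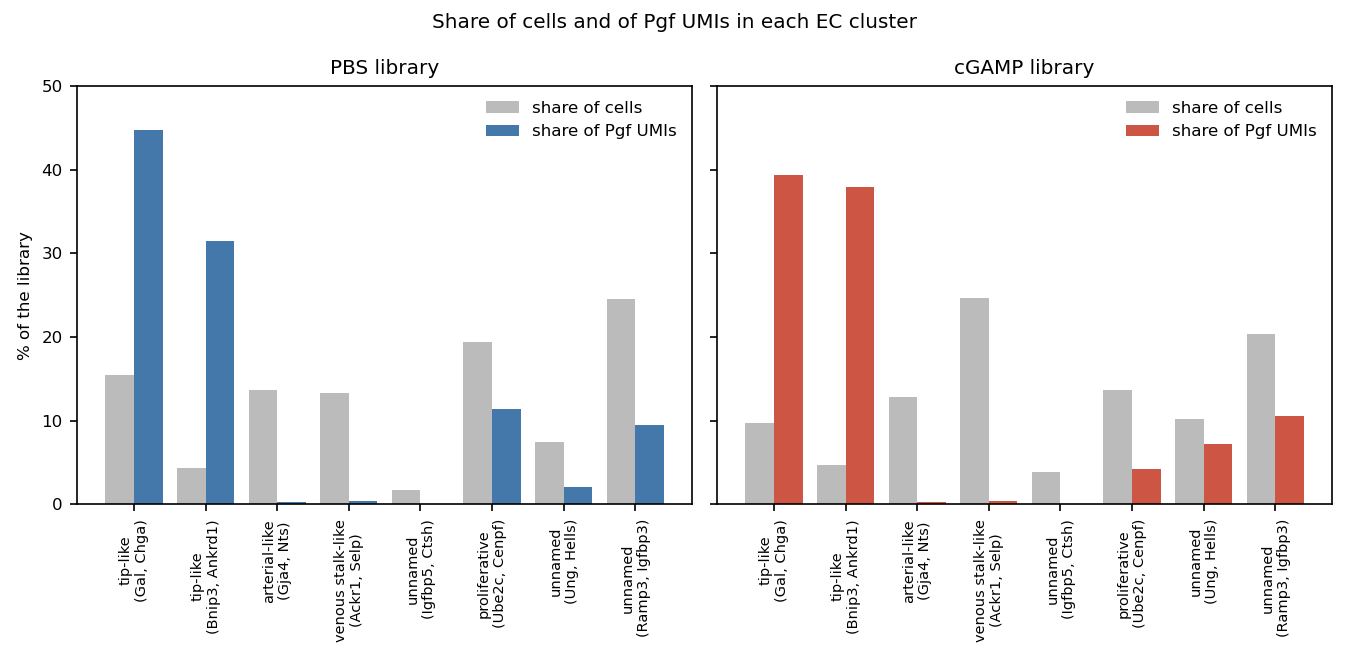
Share of cells (grey) and share of Pgf UMIs (colour) held by each EC cluster (x axis), in percent of the library (y axis, from 0), for the PBS and cGAMP libraries. The Gal/Chga and Bnip3/Ankrd1 tip-like clusters together hold 76.2% and 77.3% of the Pgf UMIs.

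In what follows, proportions of clusters are shares of a library's UMIs, not of its cells, so that depth per cell enters them. The lower Pgf of the cGAMP library had 2 parts of similar size. With the PBS levels of each cluster and the cGAMP proportions of clusters, its log2 ratio would be -0.29, and with the PBS proportions and the cGAMP levels -0.34. With the proportions held at the average of both libraries it was -0.35, which is under 1.5-fold. Within clusters, the difference was uneven. Pgf was lower in the Bnip3/Ankrd1 tip-like cluster, by a log2 ratio of -0.54 (-0.60 to -0.48), and nearly level in the Gal/Chga cluster, at -0.09 (-0.15 to -0.04). In proliferative ECs it stood at 109 CPM in the PBS and 35.0 CPM in the cGAMP library, a log2 ratio of -1.64 (-1.80 to -1.49), and the thinned cells with a Pgf UMI were 18.0% (14.6 to 21.8) and 5% (2.31 to 9.28). It was the only 1 of 7 members there to differ by 1.5-fold, where 8.8% of genes did. In the Ung/Hells cluster Pgf was higher after cGAMP, 87.0 against 50.4 CPM, a log2 ratio of 0.79 (0.62 to 0.96), although the thinned cells with a UMI were 10.2% and 9.63%. It was again the only 1 of 7 members past 1.5-fold, where 10.1% of genes were.

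Vegfa stood at 46.9 CPM (40.3 to 54.2) in the Bnip3/Ankrd1 tip-like cluster of the PBS library, from 181 UMIs, and at 19.4 CPM (14.7 to 25.2) in that of the cGAMP library, from 57 UMIs. In the other 7 clusters it stayed at or under 7.74 CPM. The 2 intervals of the Bnip3/Ankrd1 cluster were apart, with a log2 ratio of -1.27 (-1.73 to -0.83). There 26.6% of the thinned cells had a UMI of Vegfa in the PBS library (18.6 to 35.9) and 9.52% in the cGAMP library (3.58 to 19.6), and 2.75% and 3.17% had a UMI of Lyz2. Leucocyte markers as a sum moved in the opposite direction in this cluster, whereas Lyz2 alone went from 25.1 to 11.3 CPM. The sum of the 13 markers was 56.4 CPM in the PBS and 332 CPM in the cGAMP library, with S100a9 at 0.26 and 152 CPM and 2 and 1 of the markers at 0, and 1 cell held 78.9% of the marker UMIs in the cGAMP library. Without the 1 PBS-treated and 2 cGAMP-treated cells of the cluster that had at least 10 leucocyte UMIs (Cd14 not counted), a choice made after the values were seen, the log2 ratio was -1.22 for Vegfa and -0.58 for Pgf.

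Vegfc was highest in arterial-like ECs, which held 34.5% of its UMIs in the PBS and 31.3% in the cGAMP library. It stood at 114 CPM (107 to 122) in PBS-treated and 142 CPM (132 to 153) in cGAMP-treated arterial-like ECs, and at 74.9 and 75.3 CPM in the Igfbp5/Ctsh cluster. The Gal/Chga tip-like cluster had the lowest level, 7.503 and 8.93 CPM. The higher Vegfc of the cGAMP library was found in 7 of 8 clusters, and in 3 of them its interval excluded 0. These were arterial-like ECs, with a log2 ratio of 0.31 (0.17 to 0.45), the Ramp3/Igfbp3 cluster, where it stood at 29.8 and 54.3 CPM, a log2 ratio of 0.87 (0.72 to 1.02), and the Bnip3/Ankrd1 tip-like cluster, where it stood at 10.6 and 22.2 CPM from 41 and 65 UMIs, a log2 ratio of 1.06 (0.48 to 1.66). In the Ramp3/Igfbp3 cluster Vegfc was the only 1 of 7 members past 1.5-fold, where 10.7% of genes were. In the Bnip3/Ankrd1 cluster Vegfc, Vegfa and Nrp1 were 3 of 8 members past it, where 18.6% of genes were. Vegfc and Vegfa reached the limit of 20 CPM only in the library where each was higher, so they entered this count through that library. Vegfc was found in that cluster in 3.67% (1.01 to 9.13) and 7.94% (2.63 to 17.6) of the thinned cells and Lyz2 in 2.75% (0.571 to 7.83) and 3.17% (0.387 to 11.0). The share with Vegfc was thus not above that of Lyz2 by more than counting error.

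**Figure D4:**
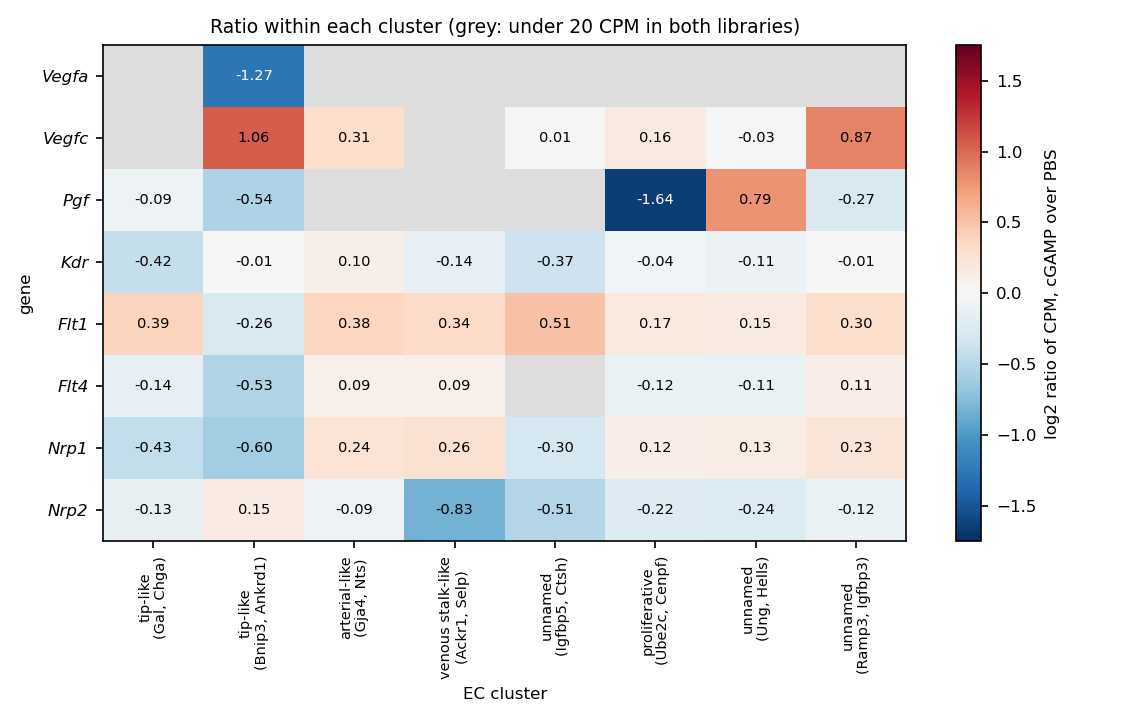
Log2 ratio of CPM, cGAMP over PBS, of each of the 8 genes (rows) within each EC cluster (columns), in red where higher and blue where lower after cGAMP, and grey where a gene was under 20 CPM in both libraries. Flt1 is red in 7 of 8 clusters, whereas Pgf is at -1.64 in proliferative ECs and at 0.79 in the Ung/Hells cluster.

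Among the receptors, Flt1 was higher after cGAMP in 7 of 8 clusters and lower in 1, and all 8 intervals excluded 0. It stood highest in arterial-like ECs, at 1156 CPM (1133 to 1179) in the PBS and 1501 CPM (1468 to 1534) in the cGAMP library, and lowest in the Gal/Chga tip-like cluster, at 399 and 522 CPM. The exception was the Bnip3/Ankrd1 tip-like cluster, where it was at 717 CPM (691 to 744) and 598 CPM (570.3 to 627), a log2 ratio of -0.26 (-0.35 to -0.18). The largest ratio was 0.51 (0.36 to 0.66), in the Igfbp5/Ctsh cluster, and in no cluster did Flt1 differ by 1.5-fold.

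Kdr was also highest in arterial-like ECs, at 546 CPM (530.4 to 563) and 587 CPM (567 to 608), and lowest in the Bnip3/Ankrd1 tip-like cluster, at 149.6 CPM (138 to 162) and 148 CPM (135 to 163). Between them it stood near 300 CPM in the Ramp3/Igfbp3, proliferative and Ung/Hells clusters, whose neighbouring intervals overlapped in each library. After cGAMP Kdr was lower in 7 clusters, and in 4 of them its interval excluded 0, most clearly in the Gal/Chga tip-like cluster, where it stood at 246 CPM (238 to 253) and 184 CPM (174 to 194), a log2 ratio of -0.42 (-0.51 to -0.33). Arterial-like ECs were the exception, at 0.10 (0.04 to 0.17). In the Gal/Chga cluster the sum of 7 mural markers, of which Kcnj8 was the most abundant over the whole library, was 85.6 and 126 CPM, and its part in the lower Kdr was not tested. Neither tip-like cluster was among the 3 highest in Kdr.

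The balance of both VEGF-A receptors is easier to read as UMIs of Flt1 per UMI of Kdr, a ratio of counts of 2 genes that is compared here only between cells. It was 2.20 (2.17 to 2.24) in all PBS-treated ECs and 2.84 (2.79 to 2.89) in all cGAMP-treated ECs. In the PBS library the clusters ranged from 1.62 (1.56 to 1.69) in the Gal/Chga tip-like to 4.79 (4.38 to 5.25) in the Bnip3/Ankrd1 tip-like cluster, so that the tip-like clusters lay at opposite ends. After cGAMP the ratio was 2.84 (2.66 to 3.03) in the first and 4.03 (3.63 to 4.49) in the second. In the Igfbp5/Ctsh cluster it was 2.62 (2.23 to 3.09) and 4.82 (4.20 to 5.54). It was higher after cGAMP in all clusters but Bnip3/Ankrd1, where the intervals overlapped.

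**Figure D5:**
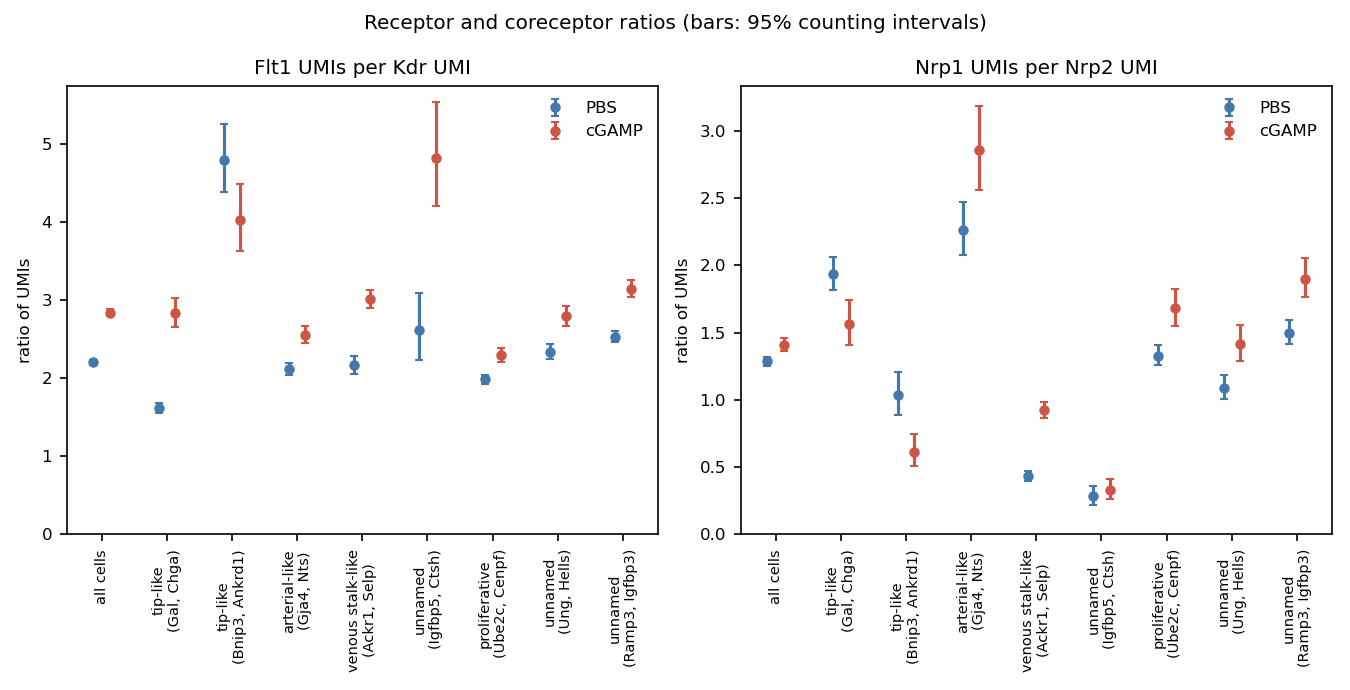
UMIs of Flt1 per UMI of Kdr (left) and of Nrp1 per UMI of Nrp2 (right) on linear y axes from 0, in all cells and in each EC cluster (x axis) of the PBS (blue) and cGAMP (red) libraries, with 95% counting intervals. The ratio of Flt1 to Kdr goes from 1.62 to 2.84 in the Gal/Chga tip-like cluster, and that of Nrp1 to Nrp2 from 0.43 to 0.92 in venous stalk-like ECs.

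Flt4, the receptor of VEGF-C, was spread evenly over most clusters. It stood at 55.0 CPM (50.04 to 60.4) and 58.6 CPM (52.3 to 65.5) in arterial-like ECs and at 50.7 and 45.9 CPM in the Gal/Chga tip-like cluster, and was lowest in the venous stalk-like cluster, at 19.1 and 20.2 CPM, and in the Igfbp5/Ctsh cluster, at 17.9 and 15.2 CPM from 17 and 22 UMIs. In each library 6 of the 7 neighbouring pairs of clusters in its order had overlapping intervals. Its only interval to exclude 0 was that of the Bnip3/Ankrd1 tip-like cluster, 38.3 and 26.6 CPM, a log2 ratio of -0.53 (-0.94 to -0.12). Flt4 and Vegfc were thus both highest in arterial-like ECs. Over all clusters pooled, cells with Vegfc carried Flt4 at 22.7% (68 of 300 cells) against 17.3% of the others in the PBS library and at 22.2% (45 of 203) against 16.5% in the cGAMP library. Flt4 was found in 22.5% and 23.7% of all thinned arterial-like ECs, and the part of cluster membership in these shares was not tested.

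Since Flt4 marks lymphatic ECs too, their markers were read beside it. The lymphatic factor Prox1 stood at 2.01 and 0.99 CPM, and Pdpn at 0.16 and 0.36 CPM. Lyve1, which macrophages also express, stood at 10.2 and 43.6 CPM and was found in 3.27% and 13.3% of thinned cells. It was highest in the Bnip3/Ankrd1 tip-like cluster, at 30.3 and 114 CPM. In the Igfbp5/Ctsh cluster Lyve1 stood at 1.06 and 3.45 CPM and Pdpn at 0 CPM in both libraries, unlike Prox1. Of the 185 Prox1 UMIs of the PBS library, 105 lay in the 44 cells of the Igfbp5/Ctsh cluster, and 51 of these in 1 cell. In the cGAMP library that cluster held 24 of 63. Flt4 was at its lowest in this cluster, beside 326 CPM (291 to 365) and 229 CPM (205 to 255) of Nrp2, which was higher there than in any other cluster.

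Nrp2 was highest in the unnamed Igfbp5/Ctsh cluster and, after it, in venous stalk-like ECs. In venous stalk-like ECs it stood at 230.0 CPM (219.7 to 241) in the PBS and 129.5 CPM (124 to 135) in the cGAMP library, a log2 ratio of -0.83 (-0.92 to -0.74), or 1.78-fold lower. It was the only 1 of 5 members there past 1.5-fold, where 19.4% of genes were. Elsewhere it stayed between 77.1 and 119 CPM, apart from the Igfbp5/Ctsh cluster. Nrp2 was lower after cGAMP in 7 of 8 clusters and its interval excluded 0 in 5. The venous stalk-like cluster held 13.3% of PBS-treated ECs (12.04 to 14.7) and 24.7% of those treated with cGAMP (22.4 to 27.1). Its median depth was 20946 and 38203 UMIs per cell, which enters the shares of UMIs used as proportions. These proportions and the levels moved Nrp2 in opposite directions. With PBS levels and cGAMP proportions its log2 ratio would be 0.28, and with PBS proportions and cGAMP levels -0.27.

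Nrp1 was highest in arterial-like ECs, at 204 CPM (194 to 214) and 241 CPM (228 to 254), and lowest in the Bnip3/Ankrd1 tip-like cluster, at 89.0 CPM (79.9 to 99.0) and 58.6 CPM (50.2 to 68.1). It was lower after cGAMP in both tip-like clusters, by a log2 ratio of -0.43 (-0.54 to -0.32) in the Gal/Chga and -0.60 (-0.88 to -0.33) in the Bnip3/Ankrd1 cluster. In 5 of the other clusters it was higher and its interval excluded 0, at most 0.26 (0.14 to 0.39), in venous stalk-like ECs. The level of 139 CPM in both libraries thus stood over differences of opposite sign. There were 0.43 (0.40 to 0.47) Nrp1 UMIs per Nrp2 UMI in venous stalk-like ECs of the PBS library and 0.92 (0.86 to 0.99) in those of the cGAMP library, against 2.27 (2.08 to 2.47) and 2.86 (2.56 to 3.19) in arterial-like ECs.

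In the remaining clusters no member with at least 20 CPM in either library passed 1.5-fold. These were the Gal/Chga tip-like cluster, with 0 of 6 members against 9.02% of genes, arterial-like ECs, with 0 of 6 against 18.2%, and the Igfbp5/Ctsh cluster, with 0 of 5 against 21.6%. Mitochondrial transcripts moved with the libraries in every cluster, at 3.65% to 5.25% of UMIs in the PBS and 2.34% to 3.35% in the cGAMP library. Their part in these results was not tested. With cells of at most 5% mitochondrial UMIs the log2 ratio of Pgf was -0.82 and that of Vegfc 0.51.

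Over the 16 combinations of cluster and library, which share libraries and depth, Kdr and Nrp1 had a Pearson correlation of log2(CPM + 5) of 0.85, Flt1 and Vegfc of 0.78, Pgf and Vegfa of 0.66, and Flt4 and Nrp2 of -0.85. Of 6038 other genes with at least 20 CPM, the 3 most like Pgf were Adm, which encodes the vessel peptide adrenomedullin, at 0.97, Usp31 and Adamts7, both at 0.97. Those most like Nrp1 were Hey1, an arterial Notch target, at 0.91, Rbms1 and Cd38. Nudt14, Sema3g, an arterial semaphorin, and Rexo2 were most like Kdr, at 0.87 to 0.91, and Eml1, Bcl2l1 and Slc35b1 most like Flt1, at 0.83 to 0.88. Those most like Flt4 were Mpzl1, Khdrbs3 and Krtcap2, at 0.91 to 0.93, those most like Nrp2 Zfp800, Timp2 and Tspan5, each at 0.94, and those most like Vegfc Ppp1r2, Ptpn9 and Stc1, at 0.87 to 0.92. By Spearman correlation at most 1 of each 3 was kept, so the names depend on the measure.

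The genes around the family are given from lists of general knowledge, with the background shares of 7.41% lower and 4.53% higher. Of 27 tested genes that carry the signal from VEGF receptors, none was past 1.5-fold, with a median log2 ratio of -0.10. The largest differences were those of Plcg1, the phospholipase that KDR recruits, at -0.57, Pik3cb at -0.43 and Mapk3 at -0.43. Of 15 genes that modulate the receptors, 4 were lower and 1 was higher, with a median of -0.13. Unc5b, a guidance receptor of tip cells, was at -1.28, the heparan sulphate proteoglycan Sdc4 at -1.20 and Egfl7, a matrix protein secreted by ECs, at 0.85. Sdc4 stood at 11.3 and 4.92 CPM, so it entered the count of lower genes only through the PBS library. Of 18 genes that VEGF-A is known to induce in ECs, 2 were lower and 1 was higher, with a median of 0.11. The chemokine receptor Cxcr4 was at -1.09, the calcineurin regulator Rcan1 at 0.86 and Esm1, a tip cell proteoglycan, at -0.71.

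Of 7 tested semaphorins and plexins, the other ligands and partners of the neuropilins, 1 was lower and 2 were higher. One of the 2, Sema3a, reached the limit of 5 CPM only in the cGAMP library, so it entered this count through that library. Sema3a, a ligand of NRP1, stood at 4.97 CPM in the PBS and 31.9 CPM in the cGAMP library, a log2 ratio of 2.68 (2.53 to 2.83), while Nrp1 stood level. It was higher in each of the 8 clusters, from 1.13 in the Igfbp5/Ctsh cluster to 3.89 in arterial-like ECs, where it had 9 and 87 UMIs. Its plexin partner Plxna4 was at 1.13, and Sema3g, an arterial marker, at -0.88.

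Of 19 tested hypoxia genes, 6 were lower after cGAMP and none was higher, with a median log2 ratio of -0.39. The oxygen sensor Egln3 was at -2.19, the lipoprotein receptor Vldlr at -1.36 and Ankrd37 at -0.95. Vldlr stood at 6.77 and 2.64 CPM, so it entered the count of 6 only through the PBS library. All 19 had their highest level of the PBS library in the Bnip3/Ankrd1 tip-like cluster, where Pgf and Vegfa were also highest, and 16 of them in the cGAMP library. Bnip3, Adm, Egln3 and Ero1l of this list were among the leading genes of that cluster, so that these counts were partly set in advance. The share of all genes that were highest there is not given. In that cluster 10 of the 19 were at least 1.5-fold lower after cGAMP, where 8.46% of 5872 genes were, with a median of -0.66 against 0.02 over those genes. Vldlr (62.4 and 15.3 CPM there) and Kdm3a (24.6 and 14.3 CPM) reached the limit of 20 CPM only in the PBS library. They thus entered the count of 10 through the library where they were higher. Of the HIF subunits and their regulator, none of 4 was past 1.5-fold, with Arnt at -0.49, Epas1 at -0.38 and Vhl at -0.37.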

How the data were processed

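Sorted ECs of 1 PBS-treated and 1 cGAMP-treated LLC tumour were profiled by droplet scRNA-seq. The authors aligned reads to mm10 with Cell Ranger 3.0.0, kept cells that had at least 500 genes and at most 10% mitochondrial UMIs, removed non-endothelial clusters, and log-normalized with Seurat 3.1.1. The values they deposited are natural logs of 1 plus UMIs per 10000 of a cell. UMIs were recovered from these values, and 100% came within 0.01 of a whole number. The kit is version 3 in the methods and version 2 in the labels.

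UMIs were summed per library or cluster as CPM. Intervals are 95% (exact Poisson for levels, Clopper-Pearson for shares, binomial for ratios) and cover counting error only. With 1 library per group no test was made. A gene counted as called past 1.5-fold at 5 CPM or more in either library (20 CPM within clusters). Cells were thinned to 5000 UMIs for shares, and 70 cells of the PBS and 13 of the cGAMP library were too shallow for that. Clusters were rebuilt with Seurat 5.3.0 in R 4.3.3 (2500 variable genes, less members and genes that differed 2-fold between libraries, which left 1787; anchors; 30 components; resolution 0.5), so names need not be those of the study. A cluster was named when at least 3 markers were raised 2-fold and no other class had more markers among its 10 leading genes, thresholds that were set after the clusters were seen. No doublets were removed.

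The genes named are the 8 members, the 3 genes of each pathway list with the largest ratios, the 3 genes most like each member and leading genes of clusters. The members and lists were chosen with earlier results of these data known. Promoters are from RefSeq (8 of 8 members listed) and gene positions from GENCODE on GRCm38. Bases after the RefSeq start were found in a GENCODE transcript of the gene for each member but Vegfc. No protein sequence was used here. The scripts (numpy 2.4.6, scipy 1.17.1) were tested on simulated data. Alternatives were other ways to scale, filter, thin, select and cluster cells.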

Additional observations from a re-analysis of the deposited data

Results flagged for a closer look

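Pgf was the one member that was at least 1.5-fold higher after cGAMP in 1 cluster and at least 1.5-fold lower in others when no lower limit on CPM was set, with counting intervals that excluded 0 in each. The log2 ratio of cGAMP over PBS was 0.79 in the unnamed Ung/Hells cluster, -1.64 in proliferative ECs, -2.10 in venous stalk-like ECs and -0.73 in arterial-like ECs. The difference between clusters was not tested, since each has 1 library per condition. Proliferative and Ung/Hells ECs are neighbouring states of the cell cycle by their leading genes, and the levels went from 109 to 35.0 CPM in the former and from 50.4 to 87.0 CPM in the latter. In venous stalk-like and arterial-like ECs Pgf rested on few UMIs, 101 and 42 in the former and 66 and 26 in the latter. Both were under the limit of 20 CPM that was set for calls within clusters, and apart from PBS-treated arterial-like ECs their shares of cells with Pgf were not above those of Lyz2 by more than counting error. Of these 4 clusters, the Ung/Hells and proliferative clusters were above that limit, and nothing is read from the other pair. In the Ung/Hells cluster 468 and 679 UMIs were counted, with single cells at up to 1058 and 1334 CPM and a median cell without any. A single library per group leaves no outlying sample to be looked for.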

How the results depend on the processing

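No paired analysis was possible because each group held 1 library, so no replicate could be left out and no block fitted. The removal of cells with leucocyte UMIs was chosen after the data were seen. Over 9 ways to scale, thin or select cells, the log2 ratios of Kdr, Flt1, Flt4, Nrp2, Pgf, Vegfa and Vegfc each kept their direction, and that of Nrp1 kept it in 6. Pgf ranged from -0.82 to -0.35 and stayed at least 1.5-fold lower in 8 of the 9.

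Values that left their counting interval were as follows. With cells thinned to 5000 UMIs the log2 ratio was 0.32 for Flt1, -0.030 for Flt4, -0.048 for Nrp1, -0.056 for Nrp2 and -0.60 for Pgf. With at most 5% mitochondrial UMIs it was 0.29 for Flt1, -0.82 for Pgf and 0.51 for Vegfc. With cluster proportions (shares of UMIs) held equal it was -0.033 for Flt4, 0.071 for Nrp1, -0.34 for Nrp2 and -0.35 for Pgf. With the mean of per-cell CPM it was -0.064 for Kdr, 0.29 for Flt1 and -0.59 for Pgf, and with median-of-ratios scaling -0.063 for Kdr and 0.30 for Flt1. Without the 1% of cells with the most Pgf UMIs, Pgf was at -0.74.

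At 2-fold 0 members were lower, because Pgf is at 1.59-fold, and without a filter on low values 2 were, because Vegfa then counts. The difference in the share of cells with Pgf was -9.04 percentage points, and -13.1 without thinning. The number of members at least 4-fold higher in their highest cluster in both libraries was 2, and 4 at resolution 1.2, 4 with all 2500 variable genes and 6 with cells thinned before clustering. Of the folds of highest over lowest cluster under other settings, 43 moved by more than 1.5-fold and 69 did not. At resolution 0.3 and without integration, that of Pgf in the PBS library went from 194 to 35.4 and 31.0, and that of Kdr from 3.57 to 1.69 and 1.62. These 2 settings gave 4 and 5 clusters, against 8 in the main setting, and the part of cluster number in the lower folds was not tested. The class of markers most raised in the highest cluster of Kdr, Flt1, Nrp2, Pgf, Vegfa and Vegfc was kept in all 7 other clusterings or averages, and in the PBS library that of Flt4 in 4 and of Nrp1 in 5.

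Depth limits Vegfa and Vegfd, at 181 and 23 UMIs in the cGAMP library, and the clusters of 44 to 63 cells.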
